A study of Mus musculus with 36 samples.

Results

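Involucrin (Ivl) and 9 further genes of the stratified epidermis were examined in RNA-seq libraries of mouse kidneys and tumors carrying the ASPSCR1-TFE3 fusion. The genes were taken by symbol: Ivl, loricrin (Lor), filaggrin (Flg), filaggrin family member 2 (Flg2), Trp63, Sprr1a, Sprr1b, transglutaminase 1 (Tgm1), desmocollin 3 (Dsc3) and desmoglein 3 (Dsg3), that is 10 of the 53379 genes in the count tables. All 10 had a count in at least 1 library. The set was chosen by the measured rise of Ivl in kidney tumors compared to control kidneys, so that contrast is described here without a test for all 10 genes, and contrasts that reuse the kidney tumors or the control kidneys are given without a test for Ivl. The question was whether the Ivl rise came with the other genes, and how the fetal kidneys compared.

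The adult tissue came from 6 Sglt2-Cre; ASPSCR1-TFE3 LSL/+ mice, which gave 11 libraries of kidney tumors and 4 of non-transformed kidney, besides 4 of retro-orbital and 3 of brain tumors, and from 3 Sglt2-Cre control mice with 6 kidney libraries. The fetal tissue came from 5 dysmorphic kidneys of Pax8-Cre; ASPSCR1-TFE3 LSL/+ fetuses and 3 kidneys of age-matched control fetuses, labelled Pax8-Cre but described in the design as carrying either the Cre or the LSL allele. All tissue was formalin-fixed and paraffin-embedded, total RNA was sequenced without removal of ribosomal RNA, and no ages are given. Sglt2-Cre acts in the proximal tubule and Pax8-Cre in the developing nephron and its derivatives, where Cre removes the stop cassette (LSL) in front of the fusion. Libraries of the same animal and tissue were summed before any test, the 36 libraries held 80205573 to 121415057 counts each, and adult and fetal tables were scaled separately.

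The cornified envelope is the protein shell that replaces the plasma membrane of dying keratinocytes. Involucrin, loricrin and the small proline-rich (SPRR) and late cornified envelope (LCE) proteins are its bricks, transglutaminases cross-link them, filaggrin bundles keratin filaments, and desmocollins and desmogleins are the cadherins of desmosomes. Many of these genes lie side by side in the epidermal differentiation complex on mouse chromosome 3, while Trp63 encodes p63, the transcription factor that maintains stratified epithelium. Urothelium of the renal pelvis also expresses some of these genes.

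Of the 10 genes, 6 lie on chromosome 3 (GRCm38). Ivl occupies 92570902 to 92573735 on the minus strand. Sprr1a, at 92483952 to 92485895, and Sprr1b, at 92436809 to 92438789, lie on one side of it together with Lor at 92080271 to 92083142. Flg2, at 93197278 to 93221391, and Flg, at 93273523 to 93293686, lie on the other side. Trp63 is on chromosome 16, at 25683763 to 25892102, and Tgm1 on chromosome 14, at 55700009 to 55713926. Between Ivl and Flg2 lies the LCE cluster, with the start sites of Lce1a1 to Lce1g at 74572 to 178603 bases from that of Ivl.

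Start-site sequences of 5 of these chromosome 3 genes are shown because Ivl and LCE genes were higher in kidney tumors than in non-transformed kidneys, whereas Lor and Flg were low in both. They are the 250 bases upstream of the RefSeq start site (GRCm38.p6), written 5′ to 3′ on the gene's strand, for Ivl (chr3:92573736-92573985, minus strand), Lor (chr3:92083143-92083392, minus strand), Flg (chr3:93273296-93273545, plus strand), Lce1a2 (chr3:92670316-92670565, minus strand) and Lce1d (chr3:92687211-92687460, minus strand). Capitals mark matches on either strand to TGANTCA, the AP-1 site, or to CATGTG, one of the hexamers that basic helix-loop-helix factors such as TFE3 bind. No match to CACGTG, the palindromic hexamer of the same factors, was in the windows printed.
Ivl: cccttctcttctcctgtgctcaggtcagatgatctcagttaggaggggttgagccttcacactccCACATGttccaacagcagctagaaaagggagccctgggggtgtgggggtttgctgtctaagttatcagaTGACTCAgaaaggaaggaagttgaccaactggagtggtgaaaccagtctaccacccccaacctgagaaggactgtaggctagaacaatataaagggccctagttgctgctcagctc
Lor: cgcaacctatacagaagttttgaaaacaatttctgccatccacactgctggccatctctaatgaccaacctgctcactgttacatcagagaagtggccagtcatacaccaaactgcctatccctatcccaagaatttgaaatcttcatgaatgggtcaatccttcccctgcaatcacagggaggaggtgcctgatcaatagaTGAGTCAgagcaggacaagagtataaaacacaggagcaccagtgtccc
Flg: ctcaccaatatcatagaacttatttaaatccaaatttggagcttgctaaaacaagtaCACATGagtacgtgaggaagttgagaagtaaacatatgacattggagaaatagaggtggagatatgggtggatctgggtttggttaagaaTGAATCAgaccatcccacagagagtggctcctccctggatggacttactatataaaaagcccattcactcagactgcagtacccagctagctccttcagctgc
Lce1a2: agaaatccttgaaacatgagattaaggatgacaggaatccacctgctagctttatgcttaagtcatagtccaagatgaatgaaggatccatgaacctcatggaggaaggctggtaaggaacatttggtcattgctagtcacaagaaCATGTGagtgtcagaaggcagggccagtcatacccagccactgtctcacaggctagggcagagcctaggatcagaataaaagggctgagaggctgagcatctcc
Lce1d: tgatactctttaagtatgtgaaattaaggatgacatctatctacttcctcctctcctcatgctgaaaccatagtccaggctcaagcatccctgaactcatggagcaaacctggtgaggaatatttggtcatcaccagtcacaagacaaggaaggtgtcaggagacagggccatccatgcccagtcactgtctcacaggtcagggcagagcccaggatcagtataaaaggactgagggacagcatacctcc

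A TGANTCA match was in the windows of 6 of the 7 genes that had one: Ivl, Lor, Flg, Flg2, Sprr1a and Sprr1b, but not Tgm1. Trp63, Dsc3 and Dsg3 had no window. Over all 32841 windows of this length the motif was in 6.75%. CATGTG was in 3 of the 7 (Ivl, Flg and Sprr1b), compared to 12.3% of all windows, and CACGTG was in 0 of the 7, compared to 6.02%. The Ivl window held 1 TGANTCA match at position -116 and 1 CATGTG match at -185, counted from the start site. Lce1a2 held CATGTG at -104 and no TGANTCA, and Lce1d held neither. Of the 36 genes with a window on the list of other cornified envelope and differentiation complex genes, 9 held TGANTCA, 12 CATGTG and 2 CACGTG. These are letter matches and not measured binding sites.

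In the kidney tumors Ivl was by far the most abundant of the 10 genes, and it was nearly silent in control kidneys. Its level was 55.7, 268, 349.9, 226, 32.9 and 390.2 CPM (counts scaled to 1000000 per animal and tissue) in the summed tumors of mice 1 to 6, a mean of 220.4 ± 148 CPM (SD, n = 6). Control mice 1 to 3 had 0.0839, 0.0180 and 0.00866 CPM, from 18, 4 and 2 counts. All tumors lay above all controls by orders of magnitude. The ratio of the means was 5979, and the log2 fold change was 12.56 (SE 1.46). All 18 counts of control mouse 1 came from 1 of its 2 libraries. With 1 animal left out the log2 fold change ran from 12.11 to 13.98.

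The level also varied among tumors. Over the 11 kidney tumor libraries Ivl ranged from 31.2 to 473 CPM (here per total count of the library), from 3358 to 56462 counts. Mouse 4 had the widest gap between its 2 tumor libraries, 51.5 and 383 CPM, a ratio of 7.44, whereas the ratio was 1.32 to 2.39 in the other 4 mice with paired libraries.

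**Figure D1:**
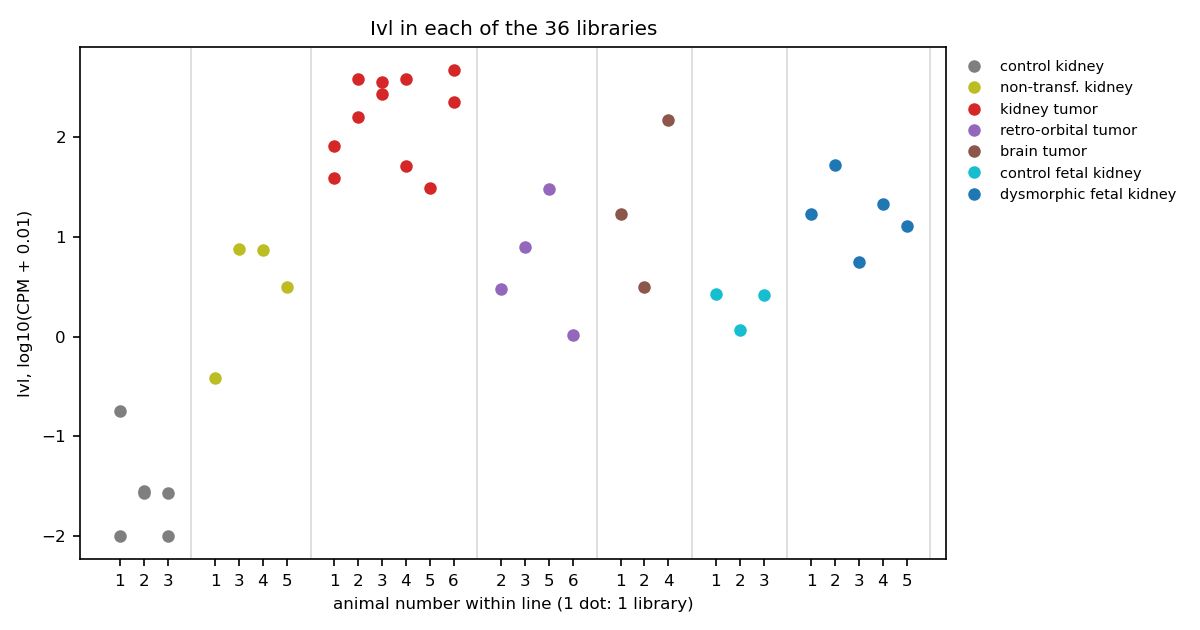
Ivl in each of the 36 libraries, as log10(CPM + 0.01), by group (color) and animal number (x axis), with 1 dot per library. Kidney tumor libraries lie between 31.2 and 473 CPM, control kidney libraries at or below 0.169 CPM, and the highest of the other groups is 149 CPM in the brain tumor of mouse 4.

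Ivl was above the control kidneys in every other tissue of the fusion mice. Non-transformed kidneys had 0.384 CPM in mouse 1, 8.14 in mouse 3, 7.42 in mouse 4 and 3.20 in mouse 5. Their log2 fold change over control kidneys was 7.02 (SE 1.27), and 8.42 with control mouse 1 left out. The tumor marker Gpnmb was present in the non-transformed kidneys at 108 to 450.4 CPM, compared to 1.56 to 2.44 CPM in control kidneys and 2864 to 7030 CPM in kidney tumors. What part tumor cells had in the Ivl of non-transformed kidneys was not tested. Retro-orbital tumors had 2.88, 7.30, 27.2 and 1.007 CPM of Ivl in mice 2, 3, 5 and 6, and all lay below the lowest kidney tumor. Brain tumors had 17.2, 2.79 and 146 CPM in mice 1, 2 and 4, so that mouse 4 overlapped with the kidney tumors and the other 2 did not. Of the brain markers Gfap, Mbp, Snap25 and Syt1, Mbp, a protein of myelin, was called higher in brain than in kidney tumors (log2 fold change 3.27, SE 0.65, edgeR adjusted p = 0.0226), whereas Gfap, Snap25 and Syt1 were not called. Their log2 fold changes were 4.96 (SE 2.37), 5.89 (SE 1.77) and 6.02 (SE 1.66), with edgeR adjusted p of 0.206, 0.0678 and 0.0546. Over all genes 8.74% were called in this contrast. With the mouse as a block, over the mice with both tumors, 0 of 21827 genes were called, so the Mbp call was lost. The part of brain tissue in the values of brain tumors, here and for Sprr1a and the other genes below, was not tested.

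By median, the adult order was therefore kidney tumors (247 CPM), brain tumors (17.2), non-transformed kidneys (5.31), retro-orbital tumors (5.09) and control kidneys (0.0180). Non-transformed kidneys and retro-orbital tumors overlapped, as did brain tumors with all groups but the control kidneys. Ivl differed from kidney tumors by a log2 fold change of 5.49 (SE 1.05) for non-transformed kidneys, where kidney tumors were higher, -4.54 (SE 1.11) for retro-orbital tumors and -1.93 (SE 1.19) for brain tumors. The last value rested on mouse 4: without its brain tumor it was -4.36. Without the retro-orbital tumor of mouse 5 the retro-orbital value was -5.87. Brain and retro-orbital tumors, a contrast that did not choose Ivl, were not distinguished by edgeR's quasi-likelihood test (log2 fold change 2.53, SE 1.43, adjusted p = 0.363). Leaving out the brain tumor of mouse 4 moved that value to 0.11.

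The other 9 genes stayed at low levels or overlapped with control kidneys, apart from Tgm1, which lay below them. Lor had 0 to 0.247 CPM in kidney tumors and 0 to 0.0373 CPM in control kidneys, and the groups overlapped. Flg had 0.0378 to 1.22 CPM in kidney tumors compared to 0.0173 to 0.0653 CPM in control kidneys, with the highest value in mouse 4. Flg2 was close to Flg, at 0.0662 to 1.33 CPM compared to 0.0260 to 0.0721 CPM. Fitted log2 fold changes were 1.90 (SE 1.39) for Lor, 3.32 (SE 1.15) for Flg and 3.29 (SE 1.20) for Flg2, but the tumors stayed at or below 1.33 CPM for all 3 genes. Thus the filaggrin pair and loricrin, late products of the granular layer, had 0 to 264 counts in tumors that had at least 3358 Ivl counts.

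The SPRR genes were mixed. Sprr1a had 1.76, 3.13, 5.15, 4.06, 1.31 and 3.68 CPM in kidney tumors of mice 1 to 6, and 2.545, 0.126 and 1.30 CPM in control mice 1 to 3 (log2 fold change 1.29, SE 0.78), so the groups overlapped. The non-transformed kidneys of mice 4 and 5 held the highest adult values, 12.1 and 13.65 CPM, and those of mice 1 and 3 only 0.2925 and 0.5787 CPM. The summed urothelium markers (7 genes) were 26.9 and 19.2 CPM in the kidneys of mice 4 and 5, and 1.865 and 3.46 CPM in those of mice 1 and 3. Their part in the Sprr1a level was not tested. Sprr1b, its near neighbour and a close relative in sequence, was at 0 in all control kidneys, non-transformed kidneys and retro-orbital tumors and reached at most 16 counts in a tumor, too few to be tested.

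Trp63 and Tgm1 had negative fold changes. Trp63 was 1.25, 0.530, 0.599, 1.52, 1.80 and 0.106 CPM in kidney tumors and 2.14, 0.8288 and 1.86 CPM in control kidneys (log2 fold change -0.72, SE 0.70). Tgm1, the enzyme that cross-links involucrin, was present in the normal kidneys here, at 28.2, 26.7 and 21.3 CPM in control mice 1 to 3. In kidney tumors it was 5.29, 1.82, 2.72, 18.5, 18.2 and 0.870 CPM, below all controls (log2 fold change -1.68, SE 0.84). Over all genes tested, 14.6% had every tumor below every control. Kidney tubule markers (7 genes) summed to 735 to 8159 CPM in kidney tumors and to 10840 to 11380 CPM in control kidneys, and the tumors of mice 4 and 5, with the most Tgm1, also had the most tubule marker transcripts. In bulk tissue, fewer cells of a type and less RNA per cell cannot be told apart.

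The desmosomal cadherins, neighbours on chromosome 18, were scarce. Dsc3 was 0.0193 to 0.585 CPM in kidney tumors and 0.0173 to 0.0746 CPM in control kidneys (log2 fold change 2.68, SE 1.18), and Dsg3 was 0 to 0.128 CPM compared to 0 to 0.0559 CPM (log2 fold change 1.25, SE 1.46). Without control mouse 1, the only control with Dsg3 counts, the fitted value was 6.15, set against 0 counts and so no measure of size. Sprr1a moved to 2.19 without the same mouse. In this contrast 9 of the 10 genes passed the low-count filter. The threshold used elsewhere was met by 1 of them, Ivl, which the choice of the set fixed in advance, beside 12.5% of all genes called higher and 19% in either direction, so nothing is read from this count.

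**Figure D2:**
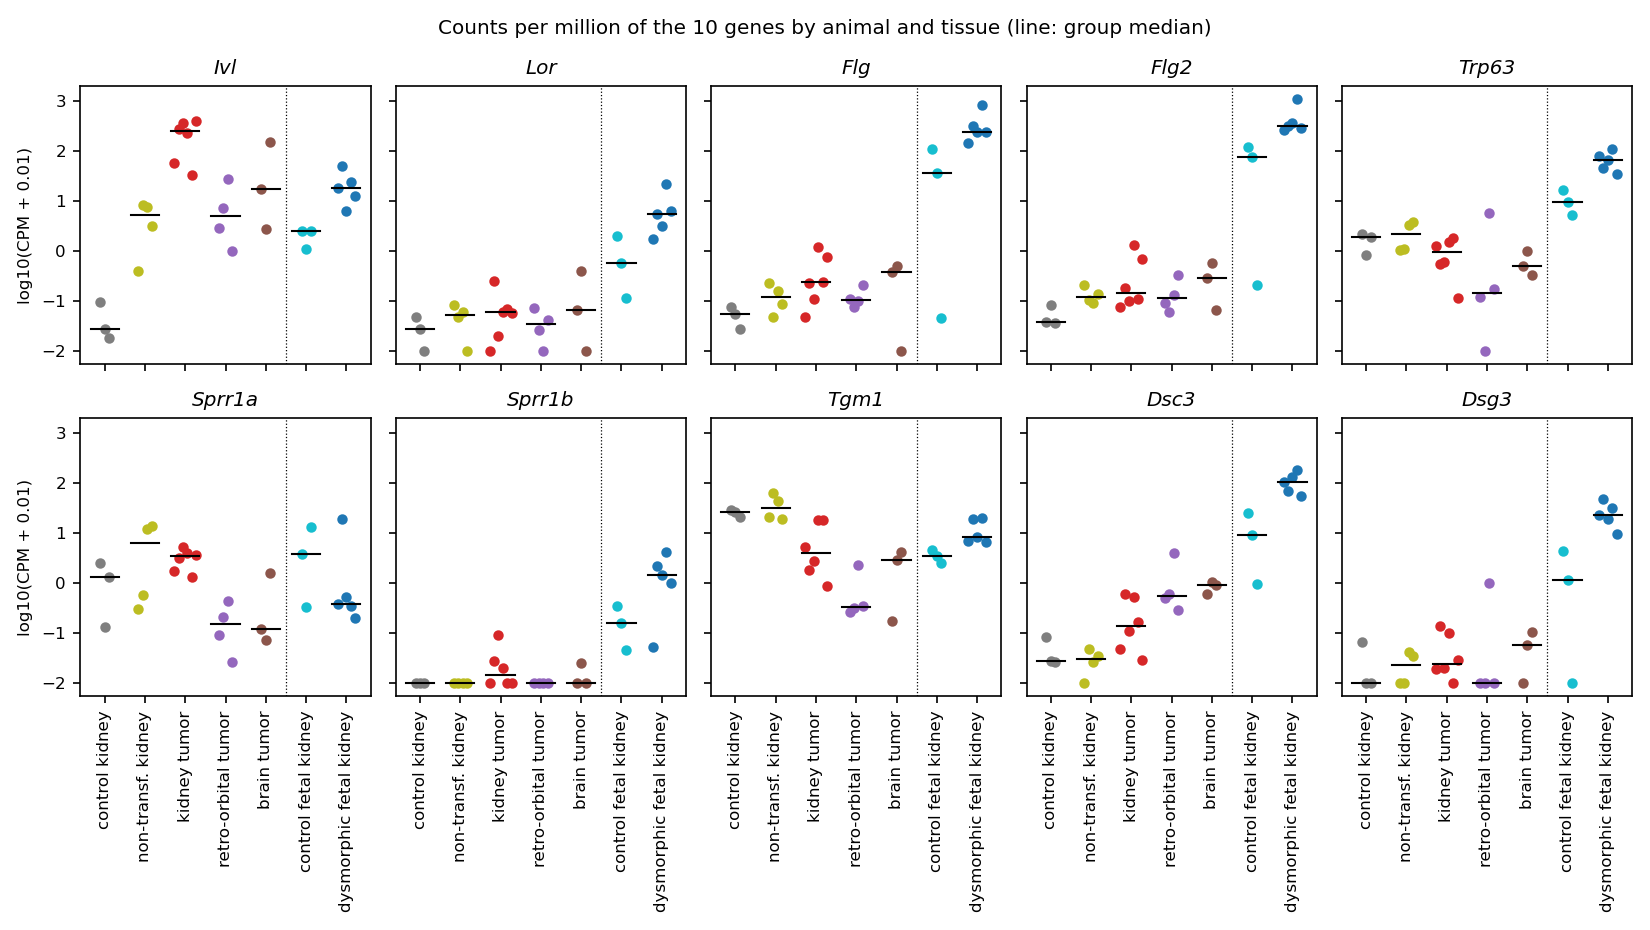
The 10 genes by animal and tissue, as log10(CPM + 0.01), with 1 dot per animal and a line at the group median; the dotted line separates adult tissue from the separately scaled fetal tissue. Ivl climbs to a median of 247 CPM in kidney tumors, where Lor, Flg, Flg2, Dsc3 and Dsg3 remain at or below 1.33 CPM, while Flg and Flg2 reach medians of 240.9 and 310.2 CPM in dysmorphic fetal kidneys.

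Levels per exon length, which allow genes to be compared, were as follows. In kidney tumors the mean was 115 CPM per kb for Ivl, 3.95 for Sprr1a, 2.498 for Tgm1 and 0.115 for Trp63, and 0.00616 to 0.0435 for Lor, Flg, Flg2, Dsc3, Dsg3 and Sprr1b. In control kidneys the order was led by Tgm1, at 8.03 CPM per kb, followed by Sprr1a at 1.64. In dysmorphic fetal kidneys Flg2 (22.2 CPM per kb), Dsc3 (19.8), Flg (18.65) and Ivl (11.55) led, and the lowest was Sprr1b at 2.14. Adult and fetal tables were scaled separately, and no test was made between them.

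Non-transformed kidneys of the fusion mice gave a contrast in which the 9 other genes could be tested. Compared to non-transformed kidneys, none of the 6 that passed the filter were called in kidney tumors by edgeR's quasi-likelihood test, beside 17.1% called over all genes. An unadjusted p below 0.05 was seen for 2, beside 34.1% of all genes, and DESeq2 called 2, beside 27.4%. Tgm1 was 18.9 to 62.7 CPM in non-transformed kidneys and at most 18.5 CPM in kidney tumors (log2 fold change -2.24, SE 0.81, adjusted p = 0.0832). Dsc3 was 0 to 0.0386 CPM in non-transformed kidneys (log2 fold change 3.50, SE 1.17, adjusted p = 0.0644). With 0 to 4 counts in each of those kidneys, it passed the filter through the tumors, and in 6 of the 10 fits with 1 animal left out, so its direction is in part fixed by the filter. These 2 genes were the DESeq2 calls, Tgm1 lower and Dsc3 higher. The edgeR call for Tgm1 appeared when the kidney tumors of mouse 4 or mouse 5 were left out (-2.70 and -2.67), and that for Dsc3 without those of mouse 6 (3.73). Between non-transformed and control kidneys, where 0.00952% of all genes were called, edgeR called 0 of the 4 other genes that passed, with 1 at an unadjusted p below 0.05 (Flg2, log2 fold change 1.61) and 0 by DESeq2, beside 11.7% and 2.35% of all genes.

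Between tumor sites edgeR called 1 of the 9 genes. In retro-orbital compared to kidney tumors Sprr1a was lower, at 0.0822, 0.203, 0.426 and 0.0162 CPM in mice 2, 3, 5 and 6, below all kidney tumors (log2 fold change -4.15, SE 0.82, adjusted p = 0.00826). With the mouse as a block over the 4 mice with both tumors the value was -4.65 and adjusted p = 0.051. It was the only one of the 6 others that passed the filter to be called, and 9.45% of all genes were called lower and 17.7% in either direction. The summed urothelium markers were also lower, at 0.755 to 1.89 CPM in retro-orbital and 2.21 to 11.1 CPM in kidney tumors. The part of urothelium in this Sprr1a difference was not tested. Tgm1 was 0.257 to 2.26 CPM in retro-orbital tumors (log2 fold change -3.32, SE 1.10, adjusted p = 0.0631). It was called with the block (-2.57, adjusted p = 0.0245), without the retro-orbital tumor of mouse 5 (-4.69) and without the kidney tumors of mouse 6 (-3.53). DESeq2 called 3 of the 6, Sprr1a and Tgm1 lower and Dsc3 higher, beside 27.1% of all genes in either direction. In brain compared to kidney tumors edgeR called 0 of the 8 others that passed, beside 8.74% of all genes, and 1, Sprr1a, had an unadjusted p below 0.05 and was called by DESeq2 (edgeR log2 fold change -2.41, adjusted p = 0.156), beside 28.5% and 21.9% of all genes. Without the brain tumor of mouse 4 that value was -5.09 with an adjusted p of 0.0141. Between brain and retro-orbital tumors edgeR and DESeq2 each called 0 of the 7 genes that passed, Ivl included, 0 had an unadjusted p below 0.05, and 1.73% of all genes were called by edgeR, 14.7% by DESeq2 and 21.5% had such a p.

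The retro-orbital tumor of mouse 5 stood apart from the other 3. It had 5.67 CPM of Trp63, 4.00 of Dsc3, 0.993 of Dsg3 and 2.26 of Tgm1, whereas the others had at most 0.162, 0.609, 0 and 0.341 CPM. Its summed basal and suprabasal keratins (12 genes) were 48.4 CPM compared to 1.30 to 2.75 CPM in the others, led by Krt5 at 26.7 CPM and Krt14 at 12.2 CPM. It had the highest Ivl of the group as well. Without it the log2 fold change of Trp63 between retro-orbital and kidney tumors turned from 0.62 to -3.38, and that of Dsc3 between brain and retro-orbital tumors from -0.64 to 0.92. Kidney tubule markers were high there too, at 1086 CPM compared to 79.2 to 162 CPM in the others. The part of other cell types in these values was not tested.

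On a list of epidermal differentiation complex genes, LCE genes and 3 others were called higher in kidney tumors. Nearly all of them were genes that passed the filter only through the tumors. Among the other 40 genes of the cornified envelope and epidermal differentiation complex on the list examined, 19 passed the filter in kidney tumors compared to non-transformed kidneys, 11 were called higher and 0 lower, while 12.1% of all genes were called higher. Of the same 40 genes 9 passed the filter between non-transformed and control kidneys, and of the 11 called only Tchhl1 was among them. The genes called were 8 LCE genes (Lce1a1, Lce1a2, Lce1b, Lce1c, Lce1d, Lce1e, Lce1f and Lce1g), Sprr2e, Prr9 and Tchhl1. The LCE genes, Sprr2e and Prr9 thus entered through the tumors in which they were high, so their direction is in part fixed by the filter and their number is no measure of the list. The genes that did not pass had too few counts. With the mouse as a block, over the 4 mice with both tissues, 3 of 14 were called, and calls over all genes fell as well, from 17.1% to 4.12%. Leaving out the non-transformed kidney of mouse 1 gave 5, that of mouse 3 gave 6 and that of mouse 5 gave 7, beside 7.41%, 8.31% and 9.03% of all genes. Summed over the 40 genes, levels were 89.8 to 618 CPM in kidney tumors, 89.1 to 116 CPM in non-transformed and 68.9 to 84.4 CPM in control kidneys. LCE1 genes were a small part of this sum in the kidney tumors of mouse 4, which had 461 CPM but 1003 LCE1 counts.

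Lce1a2 and Lce1d, which encode envelope proteins of the upper epidermis, were the most abundant LCE1 genes in the kidney tumors by mean CPM. Since they passed the filter through these tumors, their values are given as a description. Lce1a2 was 3.17, 40.2, 17.2, 1.66, 6 and 11.2 CPM in kidney tumors of mice 1 to 6, and 0 to 0.28 CPM in non-transformed kidneys (log2 fold change 7.42, SE 1.58). No count of it was seen in control kidneys, so that kidney tumors were at least 2944-fold higher (mean against 3 counts over all control mice). Lce1d was 4.72, 40.6, 19.1, 1.74, 2 and 10.1 CPM in kidney tumors and 0.0128 to 0.661 CPM in non-transformed kidneys (log2 fold change 5.34, SE 1.33). Mouse 2 had the most of both, whereas mouse 6 had the most Ivl. Lce1e, Lce1g and Lce1f had log2 fold changes of 7.14 (SE 1.18), 6.11 (SE 0.95) and 5.94 (SE 1.27). The LCE1 genes are close copies of each other, and how reads were divided among them is not given in the sources used here.

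Counted by position instead, 13 of the 26 protein-coding genes that passed the filter within 1000000 bases of the Ivl start, of 58 in all (5 of them members), were higher in kidney tumors than in non-transformed kidneys and 0 lower, beside 12.1% of all genes called higher, and the same limit of the filter holds. Sprr2i, at -165744 bases (log2 fold change 7.69, SE 1.42), and 2210017I01Rik, at 33757 bases (6.23, SE 1.58), were among those called but were not on the list above. Compared to control kidneys 13 of 28 were higher, beside 12.5%, a contrast in which Ivl was chosen. The rise was not uniform along the locus, since Sprr1a, at -87840 bases from the Ivl start, had a log2 fold change of -1.10 (SE 0.90, adjusted p = 0.405) compared to non-transformed kidneys. Retro-orbital tumors, where Ivl was low, had 13 of 24 lower than kidney tumors, and brain tumors 6 of 28. On the gene list these counts were 10 of 17 (6 of 16 with the mouse as a block) and 5 of 18 (0 of 17 with the block), beside 9.45% and 4.2% of all genes called lower. With the block 13.1% and 0% of all genes were called in either direction, compared to 17.7% and 8.74% without it. With 1 animal left out they ran from 5 (without the retro-orbital tumor of mouse 2, where 8.96% of all genes were called) to 11 and from 1 (without the brain tumor of mouse 1, 8.01%) to 4. These contrasts share the kidney tumors, through which such genes passed the filter, so their direction is in part fixed as well.

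**Figure D3:**
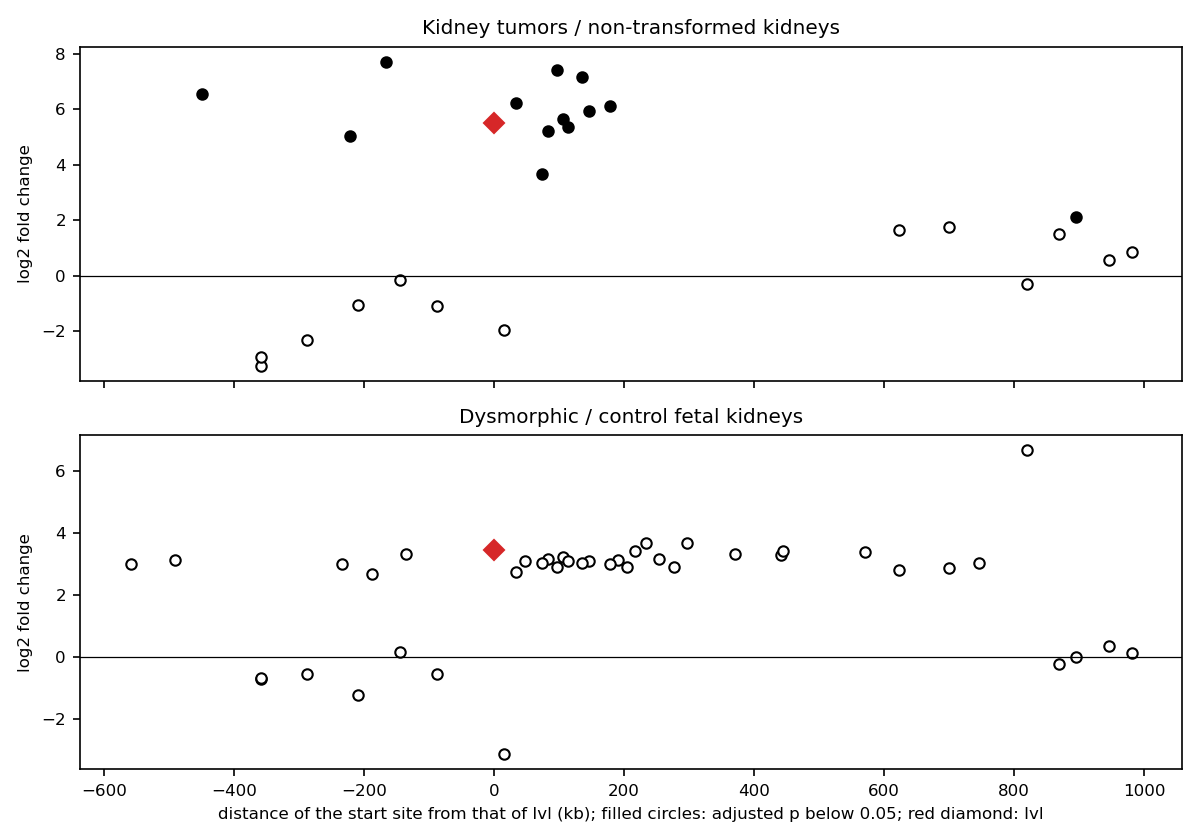
Log2 fold change (y axis) of protein-coding genes that passed the filter against the distance of their start site from that of Ivl in kb (x axis), for kidney tumors compared to non-transformed kidneys (top) and dysmorphic compared to control fetal kidneys (bottom). Filled circles have an adjusted p below 0.05 and the red diamond is Ivl; 13 of 26 are filled at the top and 0 of 41 at the bottom.

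Outside the locus, 4 of 13 barrier lipid enzymes and epidermal proteases that passed the filter were higher in kidney tumors than in non-transformed kidneys and 0 were lower, beside 12.1% of all genes called higher. Spink5 did not pass the filter between non-transformed and control kidneys, so that it entered through the tumors and its direction is in part fixed. Aloxe3, an epidermal lipoxygenase, was 4.78 to 14.4 CPM in kidney tumors and 0.0256 to 0.537 CPM in non-transformed kidneys (log2 fold change 5.12, SE 0.74, adjusted p = 0.00181). Unlike Ivl it was higher in retro-orbital than in kidney tumors, at 22.4 to 39.3 CPM (log2 fold change 1.61, SE 0.28, adjusted p = 0.00513). The protease inhibitor Spink5, the protease Asprv1, which processes filaggrin, and the tight junction protein Cldn4 were the others, with log2 fold changes of 4.2 (SE 1.07), 3.13 (SE 0.50) and 2.84 (SE 0.65).

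Keratins and transcription factors gave no calls by edgeR in kidney tumors compared to non-transformed kidneys, where 17.1% of all genes were called. Of the basal and suprabasal keratins 0 of 8 were called in this contrast by either tool, 0 at an unadjusted p below 0.05, and their sums were 2.11 to 18.9 CPM in kidney tumors, 4.94 to 28.8 CPM in non-transformed and 3.05 to 9.07 CPM in control kidneys. Of 18 epidermal transcription factors edgeR called 0, with 6 at an unadjusted p below 0.05 and 3 called by DESeq2, beside 34.1% and 27.4% of all genes. Compared to control kidneys, the contrast that chose the set, 3 of 18 (Fosl1, Junb and Cebpb) were called higher, beside 12.5% of all genes, with 5 at an unadjusted p below 0.05 and 4 called by DESeq2, and nothing is read from this count. Compared to non-transformed kidneys, of 7 transglutaminases 1, Tgm2, was higher (log2 fold change 1.26, SE 0.37, edgeR adjusted p = 0.0408), and of 13 scaffold and desmosome genes 1, Jup, which encodes plakoglobin, was lower (log2 fold change -0.68, SE 0.20, edgeR adjusted p = 0.0447). Neither share exceeded the 17.1% of all genes, so nothing is read from these counts. With the mouse as a block 4.12% of all genes were called, and no block value is given for Tgm2 or Jup. Hair follicle genes did not pass the filter. Urothelium markers had 0 of 5 called by edgeR, 2 at an unadjusted p below 0.05, and 1 by DESeq2.

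Across the 20 animal-by-tissue sums of the adult mice, the 10 genes with the pattern most like that of Ivl, by Pearson's r of log2(CPM + 0.1), were Hpgds (0.901), Slc6a12 (0.898), Ugt2b35 (0.895), Tbx1 (0.874), Lce1a2 (0.868), Mmp19 (0.868), Lce1d (0.863), Prlhr (0.862), Ankrd23 (0.861) and Sox9 (0.856). With a pseudocount of 1, 5 of these were again among the closest 10. Of the fellow members, Sprr1a was closest with 0.41, then Flg (0.376), Flg2 (0.375), Dsc3 (0.326) and Dsg3 (0.286), while Trp63 (-0.177) and Tgm1 (-0.295) had weak negative values. The points share mice, libraries and the split into tumor and kidney tissue, and these values describe likeness only.

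In the fetal kidneys Ivl and Trp63 were higher in dysmorphic than in control samples. Ivl was 18.3, 49.96, 6.21, 24.0 and 12.5 CPM in dysmorphic kidneys 1 to 5 and 2.46, 1.10 and 2.49 CPM in control fetuses 1 to 3, with no overlap (log2 fold change 3.46, SE 0.72, adjusted p = 0.0494, edgeR's quasi-likelihood test). Trp63 was 77.6, 46.1, 65.85, 109.8 and 34.4 CPM compared to 16.1, 9.46 and 5.21 CPM (log2 fold change 2.71, SE 0.50, adjusted p = 0.0395). These 2 were called higher and 0 were lower, beside 2.4% of all genes called higher. All 10 genes passed the filter, 9 had a positive log2 fold change, and the median was 2.99, compared to -0.04 over all genes. The calls of both were lost with the prefix shared by the fetuses' sample titles (2 prefixes) as a block (adjusted p = 0.0644 and 0.0527), and on leaving out any 1 fetus except dysmorphic fetuses 2 and 5 (adjusted p of 0.0794 to 0.195 for Ivl and 0.0791 to 0.179 for Trp63). Without dysmorphic fetus 2 the adjusted p was 0.0271 for Ivl and 0.0274 for Trp63, and without dysmorphic fetus 5 it was 0.0416 and 0.0311.

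In 7 of the 10 genes, Ivl, Flg, Flg2, Trp63, Tgm1, Dsc3 and Dsg3, every dysmorphic kidney lay above every control, where 9.55% of all genes did so. Dsc3 was 103, 67.7, 133, 177 and 54.4 CPM compared to 24.6, 9.09 and 0.972 CPM (log2 fold change 3.22, SE 0.94, adjusted p = 0.11). Dsg3 was 22.4, 46.7, 19.0, 31.9 and 9.48 CPM compared to 4.45, 1.17 and 0 CPM (log2 fold change 3.79, SE 1.43, adjusted p = 0.188). Tgm1 was 7.05, 19.1, 8.37, 19.9 and 6.64 CPM compared to 4.52, 3.46 and 2.52 CPM (log2 fold change 1.80, SE 0.48, adjusted p = 0.0884). Tgm1 was thus above its controls in the fetal kidneys and below them in the adult tumors, a difference between the lines that was not tested.

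The filaggrins had the highest CPM of the set in dysmorphic kidneys, not corrected for their long exons. Flg was 143, 309, 240.9, 829 and 234 CPM in dysmorphic kidneys and 108, 36.1 and 0.036 CPM in controls (log2 fold change 2.87, SE 1.58, adjusted p = 0.356). Flg2 was 261, 310.2, 361, 1095 and 283 CPM compared to 120.1, 75.9 and 0.198 CPM (log2 fold change 2.82, SE 1.42, adjusted p = 0.314). Lor was 1.72, 5.36, 3.13, 21.9 and 6.29 CPM compared to 1.99, 0.555 and 0.108 CPM, so control fetus 1 overlapped (log2 fold change 3.12, SE 1.15, adjusted p = 0.182). The controls thus held filaggrin transcripts in 2 of 3 fetuses, and control fetus 3 held almost none. DESeq2 called 6 of the 10 genes higher (Ivl, Lor, Trp63, Sprr1b, Tgm1 and Dsc3), beside 12% of all genes in either direction.

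The SPRR genes differed. Sprr1b was 0.0436, 2.21, 1.45, 4.15 and 1.02 CPM in dysmorphic kidneys and 0.345, 0.147 and 0.036 CPM in controls (log2 fold change 3.33, SE 1.27, adjusted p = 0.194). Sprr1a was 0.371, 18.6, 0.515, 0.338 and 0.189 CPM compared to 3.88, 0.327 and 13.3 CPM (log2 fold change -0.54, SE 1.69, adjusted p = 0.894). Its value turned on dysmorphic fetus 2 and control fetus 3, and over the fits with 1 fetus left out it ran from -4.03 to 0.93. Control fetus 3 thus combined the most Sprr1a of the controls with the least Flg, Flg2, Lor, Dsc3 and Dsg3, and its urothelium markers summed to 103 CPM compared to 24.9 and 50.9 CPM in the other 2.

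**Figure D4:**
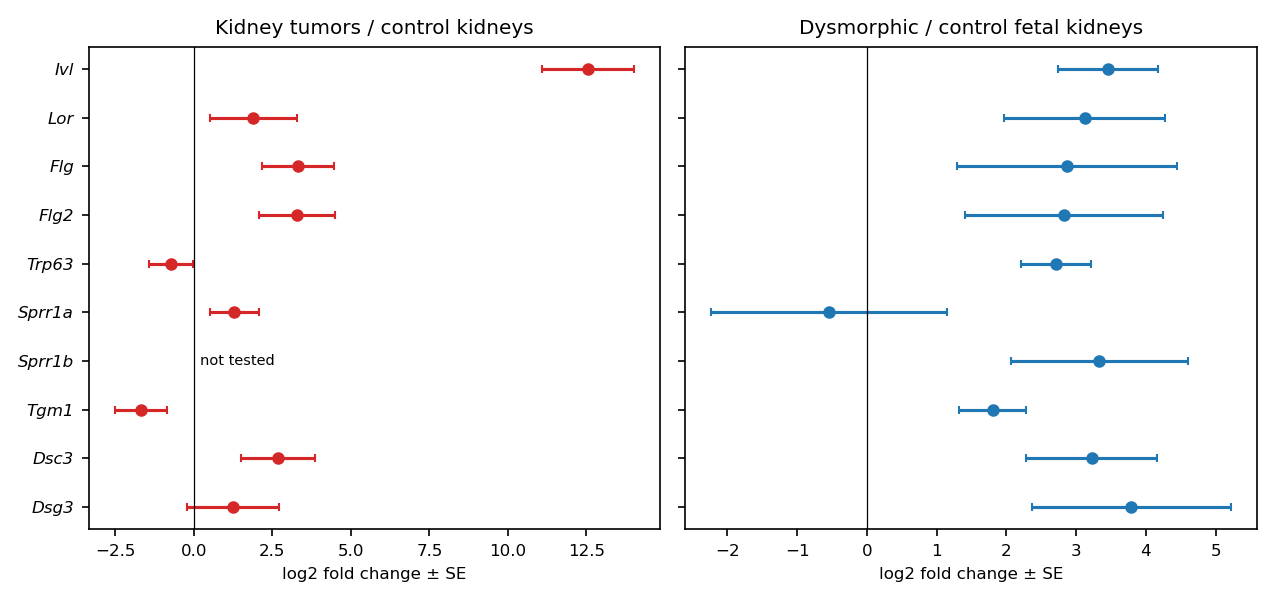
Log2 fold change with its standard error (x axis) of 9 genes in kidney tumors compared to control kidneys (left, with Sprr1b marked as not tested) and of 10 genes in dysmorphic compared to control fetal kidneys (right); the x axes differ in range. On the left Ivl lies at 12.56 and the other 8 between -1.68 and 3.32, and on the right 9 genes lie between 1.80 and 3.79 and Sprr1a at -0.54.

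Summed levels of several lists of skin genes were higher in the dysmorphic kidneys than in the controls, although edgeR called few of the single genes. The sums of the cornified envelope list, the scaffold and desmosome genes and the barrier genes lay above all controls. Those of the epidermal transcription factors (393 to 622 compared to 231 to 746 CPM) and of the transglutaminases (112 to 213 compared to 55.1 to 146 CPM) overlapped with the controls. The basal and suprabasal keratins summed to 1448 to 4679 CPM in dysmorphic kidneys and to 779, 332 and 20.2 CPM in control fetuses 1 to 3, and hair follicle genes to 3.63 to 27.5 CPM compared to 0.603 to 2.02 CPM. Of the keratins and hair follicle genes, edgeR called 1 of 11 and 1 of 7 higher, beside 2.4% of all genes, and DESeq2 called 5 and 6, beside 12% in either direction. Krt1 and Krt10, the keratins of the suprabasal layers, were 454 to 1810 CPM and 342 to 1588 CPM in dysmorphic kidneys. Skeletal muscle markers were called higher in 4 of 4 genes, with sums of 2258 to 4929 CPM compared to 960.1 to 1192 CPM, while kidney tubule markers summed to 10.6 to 165 CPM compared to 81.4 to 1343 CPM, with at least 10070 CPM in control and non-transformed adult kidneys. All 8 fetal libraries thus lay below the control and non-transformed adult kidneys in tubule markers, and keratins were low in control fetus 3. The muscle calls, like all others in this contrast, were lost in the 6 fits without dysmorphic fetus 1, 3 or 4 or any 1 control fetus. The part of skin and muscle in the fetal levels of the 10 genes was not tested. In adult kidney tumors the same keratins summed to at most 18.9 CPM.

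In the fetal kidneys 2.4% of all genes were called higher by edgeR, 12% were called by DESeq2 in either direction and 20.3% had an unadjusted p below 0.05. Of 29 tested genes of the cornified envelope and epidermal differentiation complex 0 were called by edgeR, 11 had an unadjusted p below 0.05, DESeq2 called 8 higher, and the median log2 fold change was 3.03. Of 17 barrier lipid enzymes and proteases edgeR called 0, with 12 at an unadjusted p below 0.05 and 12 called by DESeq2, and the median was 2.70. Single genes called higher were Krt15, a basal keratin (log2 fold change 3.42, SE 0.63, adjusted p = 0.0395), the desmoglein Dsg4 (3.47, SE 0.60, adjusted p = 0.0359), the hair keratin Krt35 (5.41, SE 0.98, adjusted p = 0.0382), the transglutaminase F13a1, a subunit of coagulation factor XIII (1.81, SE 0.36, adjusted p = 0.0438), and the transcription factor Tfap2c (2.70, SE 0.57, adjusted p = 0.0495). These calls rested on all fetuses being kept: without dysmorphic fetus 1, 3 or 4, or without any 1 control fetus, edgeR called 0 of all genes, with 3209 to 4615 at an unadjusted p below 0.05. Within 1000000 bases of Ivl edgeR called 0 of 41 genes, 17 had an unadjusted p below 0.05, and DESeq2 called 12.

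The make-up of the LCE1 transcripts was also compared. Per exon length, Lce1a2 and Lce1d together were 69.6, 83.6, 73.7, 68.5, 64.9 and 80% of the 12 LCE1 genes in kidney tumors of mice 1 to 6, from 1003 to 21308 LCE1 counts. In the 5 dysmorphic fetal kidneys they were 21.3 to 23.6%, and in control fetuses 1 and 2 they were 22.7 and 24.9%. Control fetus 3 had 6 LCE1 counts in all, too few for a share. Lce1a1 was 0.195 to 6.61% of the same 12 genes in kidney tumors and 18.6 to 20.3% in dysmorphic kidneys. Lce1j and Lce1k, which passed the filter only in the fetal contrast, were not among the 12. The shares are therefore not of all LCE1 genes, and those in fetal kidneys would be lower with Lce1j and Lce1k counted. Among the adult sums with at least 100 LCE1 counts outside the kidney tumors, the share of Lce1a2 and Lce1d was 81.2% in the non-transformed kidney of mouse 3, 74.5% in the retro-orbital tumor of mouse 5, and 74.2 and 80.5% in the brain tumors of mice 2 and 4. Shares within a sample do not depend on the scaling of the tables, but they do depend on how reads of near-identical genes were assigned, and the difference between adult and fetal tissue was not tested.

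**Figure D5:**
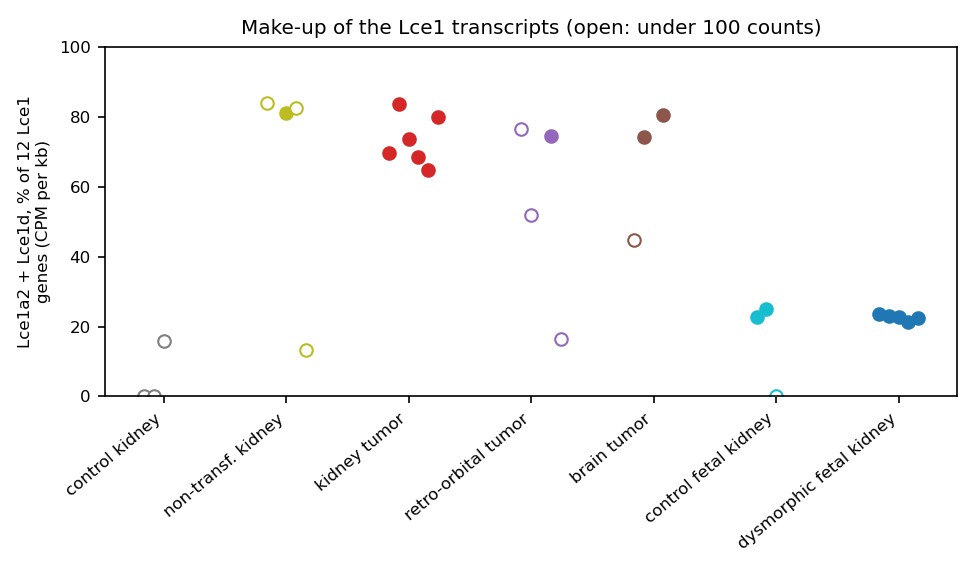
Share (y axis, percent) of Lce1a2 plus Lce1d in the CPM per kb of 12 LCE1 genes, with 1 dot per animal by group (x axis); open dots have under 100 LCE1 counts. Kidney tumors lie at 64.9 to 83.6% and dysmorphic fetal kidneys at 21.3 to 23.6%.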

How the data were processed

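Total RNA of formalin-fixed mouse tissue was sequenced from stranded libraries made without ribosomal depletion. The authors deposited 2 tables of raw counts per Ensembl gene, 1 per Cre line. The submitters' processing notes name FastQC, MultiQC, Bowtie2, STAR 2.5.2a and GRCm38/mm10 without roles, and the counting tool and annotation are not given in the sources used here. Of the counts from 1 to 20, 79.04 to 84.33% were even, the reason for which was not tested. Library totals were 80205573 to 121415057, which bounds counting error only.

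Symbols came from GENCODE M21, which matched 53274 of 53379 IDs. Libraries of the same animal and tissue were summed. CPM were scaled by TMM within a table. For 7 comparisons, quasi-likelihood tests of edgeR 4.0.16 (R 4.3.3) were run after filterByExpr, each using the animals of the compared groups alone, with Benjamini-Hochberg adjustment over all genes and a threshold of 0.05. The SE is the log2 fold change divided by the root of the F statistic. Scripts were tested on simulated data. Alternatives were RLE scaling, no filter, DESeq2 1.42.0, halved counts, leaving out each animal, and blocks. Titles carry the mouse, so tissues of the same mouse are paired by animal. The correlation of paired deviations was -0.072 to 0.259 over 12 pairs. The genes and lists were chosen with earlier results of these data known. Genes named were the 10 members, genes of 13 lists of epidermal, urothelial, kidney, brain, muscle and other markers, genes within 1000000 bases of Ivl and the 10 genes most like Ivl. Promoter sequences came from RefSeq (GRCm38.p6), with 250 bases per window. One further brain marker is not reported here.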

Additional observations from a re-analysis of the deposited data

Results flagged for a closer look

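Among 38 sets of 1 gene in 1 group of 4 to 6 animals, 10 held an animal far from the others by Dixon's criterion, always on the high side. Chance exceeds the criterion in about 1 of 20 sets of normally distributed values. CPM need not be normal and the sets share animals, so the count is not read as an excess. In the retro-orbital tumors all 4 such values came from mouse 5: Trp63 at 5.67 CPM (others 0 to 0.162), Tgm1 at 2.26 (others 0.257 to 0.341), Dsc3 at 4.00 (others 0.276 to 0.609) and Dsg3 at 0.993 (others 0). In the dysmorphic fetal kidneys fetus 4 was far above the others for Lor at 21.9 CPM (others 1.72 to 6.29), Flg at 829 (others 143 to 309) and Flg2 at 1095 (others 261 to 361), and fetus 2 for Sprr1a at 18.6 (others 0.189 to 0.515). In the kidney tumors mouse 2 was highest for Lor at 0.247 CPM (others at most 0.0588) and mouse 3 for Sprr1b at 0.0819 (others at most 0.0183), both from under 100 counts.

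Tgm1 stood out because every kidney tumor was below every control kidney (log2 fold change -1.68) and every dysmorphic fetal kidney was above every control fetus (1.80). The difference between the lines was not tested.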

How the results depend on the processing

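Under RLE scaling, halved counts and no low-count filter, the number of the 10 genes called was the same in all 7 comparisons. DESeq2 called 4 of them for kidney tumors against control kidneys, 3 against non-transformed kidneys, 1 for non-transformed against control kidneys, 4 for retro-orbital and 1 for brain against kidney tumors, and 6 in the fetal kidneys. The first contrast chose the set and Ivl was chosen on it, so its counts here are no test and nothing is read from them. Without Ivl, which is not tested where those samples recur, the other 5 were 2, 0, 3, 1 and 5. With the mouse as a replicate block retro-orbital against kidney tumors gave 1 (Tgm1), and with the title prefix as a block the fetal kidneys gave 0. With 1 animal left out the numbers were 1 to 2, 1 to 2, 0, 1 to 3, 0 to 1, 0 and 0 to 2, in the order kidney tumors against control and non-transformed kidneys, non-transformed against control kidneys, retro-orbital and brain against kidney tumors, brain against retro-orbital tumors, and fetal kidneys.

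In the same order, DESeq2 called 7079, 6004, 493, 5996, 5115, 3087 and 2722 of all genes, where edgeR called 4474, 3755, 2, 3919, 2044, 364 and 605. With 1 animal left out edgeR called 1163 to 5856, 1712 to 5522, 0 to 10, 2095 to 4089, 857 to 2075, 1 to 1316 and 0 to 1247. Without the filter non-transformed against control kidneys gave 6. With the mouse block kidney tumors against non-transformed kidneys gave 847 and brain against kidney tumors 0 (2870 at an unadjusted p below 0.05). The block fits hold fewer animals.

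Signs turned with the mouse block for Sprr1a in kidney tumors against non-transformed kidneys (0.21), Trp63 in retro-orbital (-1.02) and Flg (0.45), Flg2 (0.43) and Dsg3 (-0.88) in brain against kidney tumors. With 1 animal left out the log2 fold change crossed 0 for Trp63 in retro-orbital against kidney tumors (-3.38 to 1.06), for Flg (-1.10 to 0.25), Flg2 (-1.21 to 0.55), Dsg3 (-0.74 to 0.73) and Lor (-1.21 to 1.74) in brain against kidney tumors, for Trp63 (-1.86 to 2.74), Sprr1a (-1.01 to 2.51) and Dsc3 (-1 to 0.92) in brain against retro-orbital tumors, and for Sprr1a in the fetal kidneys (-4.03 to 0.93); none of these had an adjusted p below 0.05. The cause was not tested. With the block the value of Ivl in retro-orbital against kidney tumors was -5.71. Among the 10 genes the blocks changed the calls of Ivl and Trp63 in the fetal kidneys and of Sprr1a and Tgm1 in retro-orbital against kidney tumors, and no other among those tested. Calls on the cornified envelope list fell from 11 to 3 against non-transformed kidneys, from 10 to 6 in retro-orbital and from 5 to 0 in brain against kidney tumors. The counts of cornified envelope list genes under the same alternatives, chosen after seeing the data, were 5 to 14 against control and 5 to 13 against non-transformed kidneys with 1 animal left out. The adult values of Sprr1b, Lor and Dsg3 rest on at most 16, 54 and 112 counts per animal and tissue.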
